A study of Mus musculus with 12 samples.

Results

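The NMDA receptor subunits are 6 genes of the 20504 in the table of reads counted on coding sequence (CDS): Grin1, Grin2a, Grin2b, Grin2c, Grin2d and Grin3a. The members were chosen by name, with the very high translation efficiency (TE) of Grin2b in mice A and B already known, so the TE of those mice is described here without a test. TE is the number of ribosome footprints on a gene's CDS divided by its RNA-Seq reads on the same CDS, after each library is scaled for depth. All 6 subunits averaged 37 or more counts per library in each comparison and entered every test.

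The libraries were made from brain tissue of 6 Camk2a-RiboTag adults, mice in which Cre recombinase driven by the Camk2a promoter switches on a hemagglutinin (HA)-tagged ribosomal protein, Rpl22, in Camk2a-expressing neurons. Mice A and B were controls that the labels call untreated and to which, in the study's methods, vehicle (Captisol) was given by gavage. Mice C and D received 1 oral dose of 100 mg/kg AZD-8055, an ATP-competitive inhibitor of the kinase mTOR, and were killed 1 h later. Each of these 4 mice gave a ligation-free ribosome footprint library and a poly(A) RNA-Seq library of the right frontal lobe, and both hold all cell types of the lysate. Mice E and F, labelled untreated, each gave an RNA-Seq library of total lysate (input) and another of the polysomes pulled down with an antibody to HA (IP). CDS counts per library numbered 9395385 to 10649939 in the RNA-Seq and 3503873 to 9259938 in the footprints of mice A to D. The inputs held 12580397 and 15585831 such counts, the IPs 9309496 and 9975629. Libraries of a group were farther apart than counting noise allows (chi-square per degree of freedom 2.61 to 9.53), so none was a repeat deposit of another. With 2 mice a group, each test rests on the spread between few mice, which edgeR also draws toward that of other genes.

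NMDA receptors are glutamate-gated cation channels that need glutamate and a co-agonist, glycine or D-serine, to open, and that admit calcium when depolarization lifts their magnesium block. They are best known as triggers of synaptic plasticity. Every receptor holds GluN1, encoded by Grin1, which binds the co-agonist. The GluN2 subunits, encoded by Grin2a to Grin2d, bind glutamate and set the kinetics of the channel. GluN2B prevails in the young forebrain and GluN2A joins it with maturation, while GluN2C is known from cerebellar granule cells and glia and GluN2D from interneurons. GluN3A, encoded by Grin3a, lowers the calcium permeability of receptors that contain it.

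In mm10 (RefSeq GRCm38.p6) the 6 genes lie on 6 chromosomes: Grin1 at chr2:25291177-25319187, Grin2a at chr16:9567901-9996083, Grin2b at chr6:135713221-136173615, Grin2c at chr11:115249169-115267297, Grin2d at chr7:45831883-45871194 and Grin3a at chr4:49661611-49846023. Grin2b and Grin2a, the subunits with the highest TE in mice A and B, also span the most genomic sequence, introns included, at 460395 and 428183 bases. Grin2c, the subunit with the lowest TE, spans the least, at 18129 bases. Between these ends the orders differed. Grin3a spans 184413 bases, Grin2d 39312 and Grin1 28011, at log2 TEs of 0.41, -1.05 and 0.46 in mice A and B. Whether span and TE are related was not tested. Other annotated genes overlap the spans of 4 members. The antisense RNA Grin1os lies within Grin1, and Lrrc26 touches the edge of Grin1's span. Ppp3r2, a protein-coding gene, lies within Grin3a, 3 long non-coding RNAs overlap Grin2b and a pseudogene lies within Grin2a. Reads of overlapping genes may not have been separable, and whether the overlaps moved any value was not tested.

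Across the 12 libraries, footprints were where Grin2b stood out. In CPM, a gene's counts per 1000000 CDS counts of its library, the RNA-Seq level was 11.5 for mouse A, 13.6 for B, 12.1 for C and 9.20 for D. The footprint level was 259 for mouse A, 244 for B, 279 for C and 275 for D. Among the libraries of mice A to D, the lowest in footprints therefore stood far above the highest in RNA-Seq. Both are from mouse B, and in mice A and B such a separation follows from the choice of Grin2b. In mice E and F its level was 29.6 and 24.5 in input and 20.0 and 17.9 in IP. These are levels of 1 gene across libraries, and they were not compared between genes, since the lengths of the coding sequences were not used here.

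Grin2a was likewise highest in footprints. Its RNA-Seq level was 24.3, 22.5, 22.7 and 19.7 CPM in mice A, B, C and D, and its footprint level was 142, 141, 146 and 147 CPM. The inputs held 46.2 and 54.9 CPM of Grin2a and the IPs held 11.0 and 9.52 CPM, so that, unlike for Grin2b, the IP libraries were the lowest of all. Grin1 was present in every library between 442 CPM, in the IP of mouse F, and 940 CPM, in the footprints of mouse C.

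Grin2c had the reverse pattern. It was at 96.2, 110, 95.9 and 95.7 CPM in the RNA-Seq of mice A to D but at 16.7, 18.7, 17.1 and 14.3 CPM in their footprints. Its input level was 113 and 88.2 CPM and its IP level 13.1 and 12.4 CPM. Grin2d was likewise lower in footprints, at 16.5 to 22.7 CPM in mice A to D, than in RNA-Seq, at 32.8 to 42.0 CPM. Grin3a was at 24.7, 24.1, 22.1 and 22.1 CPM in RNA-Seq and at 31.4, 29.0, 34.5 and 37.8 CPM in footprints of mice A to D. Its IP level of 2.04 and 2.91 CPM, from 19 and 29 counts, was the lowest of its 12 libraries.

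**Figure D1:**
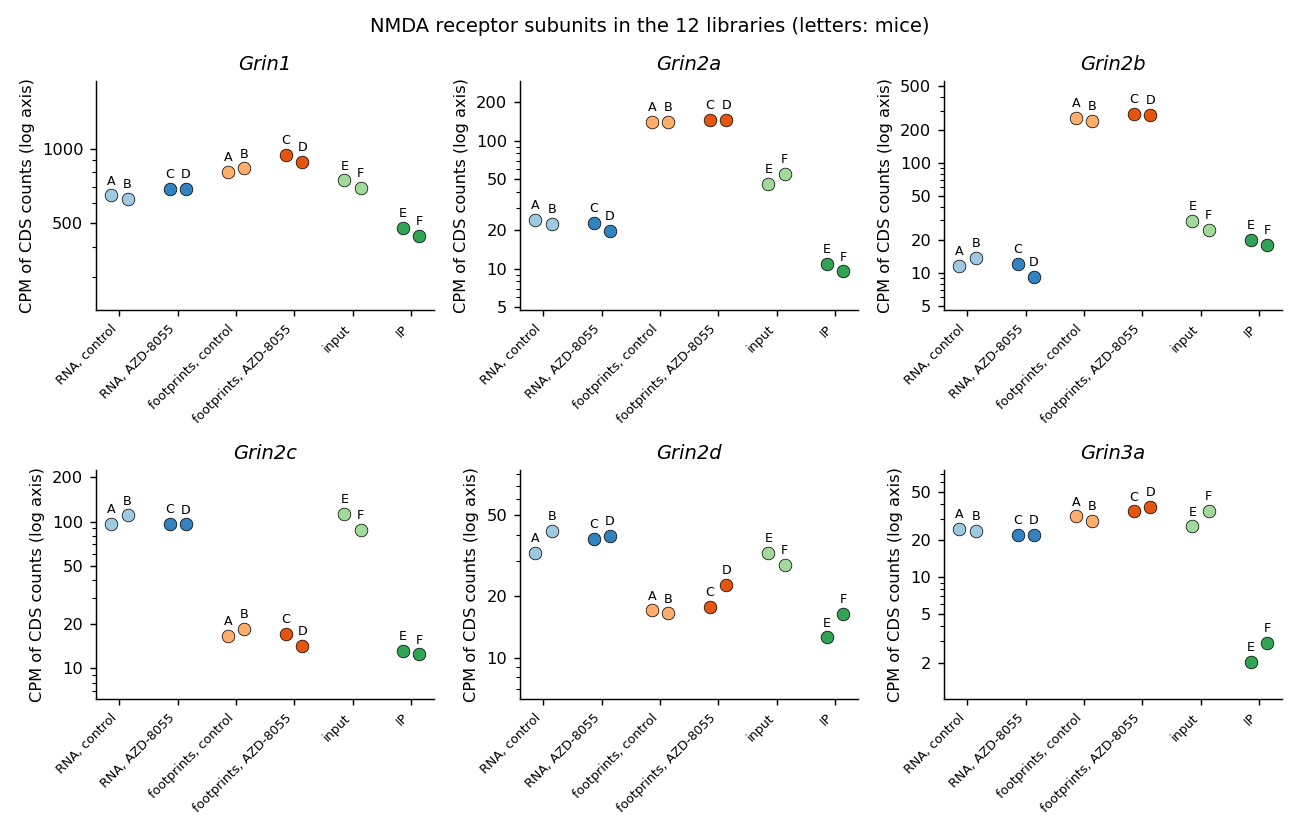
Level of each subunit in CPM of CDS counts (log axis, its range set for each panel) in the 6 groups of libraries, with 1 point per library and the letter of its mouse. In mice A to D, Grin2b and Grin2a footprints lie above all their RNA-Seq points, and Grin2c and Grin2d footprints lie below them. Grin3a falls to 2.04 and 2.91 CPM in IP.

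Grin2b had the highest TE of all 10879 genes with at least 75 counts of each kind over mice A and B. Its log2 TE was 4.62 in mouse A, from 2402 footprints and 108 RNA-Seq reads, and 4.23 in mouse B, from 1109 footprints and 135 reads, or 4.42 ± 0.28 (SD, n = 2). This is a 21.5-fold excess of footprints on a scale where the median gene had a log2 TE of 0.016 and 5% of genes lay above 1.46. These values were selected on, and they are given as a description. The RNA-Seq count is the smaller part of the ratio and sets its precision. The 95% exact interval (Clopper-Pearson on the split of the reads, counting error only) ran from 4.34 to 4.91 in mouse A and from 3.97 to 4.50 in mouse B.

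The genes next below Grin2b in mice A and B were Rorb, encoding a nuclear receptor of cortical layer identity, at a log2 TE of 4.04, Fut9, a fucosyltransferase, at 4.00, and Dpysl2, a microtubule-binding protein of axon growth, at 3.96. Slc8a1, a sodium-calcium exchanger, followed at 3.90 and Gucy1a2, a soluble guanylate cyclase subunit, at 3.89. The distance from Grin2b to Rorb, 4.42 against 4.04, is close to the 0.28 SD of Grin2b between the mice.

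The other 5 subunits lay below this level and ran from near the top to near the bottom of all genes. Grin2a had a log2 TE of 2.69 ± 0.03 (SD, n = 2), rank 48 of 10879. Grin1 followed at 0.46 ± 0.02, and Grin3a lay at 0.41 ± 0.10, the 70.4th and 68.2th percentiles. Grin2d lay at -1.05 ± 0.33, the 14.2th percentile, and Grin2c at -2.44 ± 0.07, the 1.62th percentile. Within each of mice A and B, the counting intervals of neighbours in this order did not overlap, except for those of Grin1 and Grin3a, which overlapped in both mice.

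Grin2b exceeded the median of the other subunits by 4.17 log2 units in mouse A and 3.89 in mouse B, a mean of 4.03 ± 0.20 (SD, n = 2). It exceeded Grin2a, its nearest neighbour, by 1.95 and 1.51, and Grin2c, the most distant, by 7.02 and 6.72. These differences cannot be moved by the scaling of the libraries, because it is the same for all genes of a library.

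Counting RNA-Seq reads on exons moved the TE of some subunits, in part through a new scaling of the libraries. RNA-Seq reads were deposited on all exons as well as on CDS, and footprints on CDS only. With exon counts in the denominator, Grin2b had a log2 TE of 4.38 ± 0.33 in mice A and B and ranked second of 10969 genes, behind Erbb4, a neuregulin receptor, at 4.40. Grin2a rose to 3.47 ± 0.02, Grin1 to 1.34 ± 0.04, Grin2d to -0.40 ± 0.29 and Grin2c to -1.86 ± 0.09, while Grin3a fell to -0.57 ± 0.11. Grin2b then stood 0.91 ± 0.34 log2 units above Grin2a, in place of 1.73 ± 0.31, and 4.78 ± 0.04 above the median of the other subunits. Grin2a had 229 exon and 228 CDS reads in mouse A and 227 and 223 in mouse B, so its rise came from the new scaling. Grin2c and Grin2d had more exon than CDS reads in both mice, so their rises came from it too. Differences between subunits are free of the scaling.

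The mice treated with AZD-8055 provided TE values on which no gene was selected. The log2 TE of Grin2b was 4.61 in mouse C, from 977 footprints and 122 RNA-Seq reads, and 4.93 in mouse D, from 1307 footprints and 98 reads, and it was again the highest, of 9903 genes. It stood above the median of the other subunits by 4.07 in mouse C and 4.54 in mouse D. The order of the other subunits was Grin2a, Grin3a, Grin1, Grin2d and Grin2c, with log2 TEs of 2.85 ± 0.12, 0.77 ± 0.06, 0.47 ± 0.10, -0.90 ± 0.18 and -2.55 ± 0.22 (SD, n = 2). Grin3a and Grin1 changed places, and their counting intervals overlapped in mouse C but not in mouse D.

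Within these treated mice, footprints were tested against RNA-Seq with edgeR's quasi-likelihood test. The median log2 difference of all genes was -0.019. The contrast was of mice C and D, but its spread was estimated from the 8 libraries of mice A to D. It therefore rests in part on mice A and B, in which Grin2b was chosen. Footprint and RNA-Seq libraries of a mouse were not paired in this fit. The log2 difference was 4.81 ± 0.11 (SE) for Grin2b, with a Benjamini-Hochberg adjusted p of 5.6e-14, and 2.89 ± 0.10 for Grin2a, with an adjusted p of 9.4e-13. Grin3a was higher by 0.82 ± 0.13 (adjusted p = 2.5e-05) and Grin1 by 0.52 ± 0.06 (adjusted p = 1.9e-06). Grin2d was lower in footprints, at -0.83 ± 0.15 (adjusted p = 0.00017), and so was Grin2c, at -2.52 ± 0.13 (adjusted p = 7.7e-11). Of the 6 subunits, 4 were called higher and 2 lower, where 34.6% of the 11797 genes tested were called higher and 36% lower, so a call by itself was common among all genes.

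With RNA-Seq counted on exons, a setting added after the data were seen, Grin3a turned to -0.25 ± 0.11 (adjusted p = 0.046 by edgeR) and Grin2d was no longer called, at -0.17 ± 0.15 (adjusted p = 0.32). Grin2b gave 4.88 ± 0.13, Grin2a 3.70 ± 0.09, Grin1 1.38 ± 0.06 and Grin2c -1.90 ± 0.13, all called by edgeR in the same direction as on CDS. The sign for Grin3a therefore depended on where RNA-Seq reads were counted, and that for Grin2b did not.

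**Figure D2:**
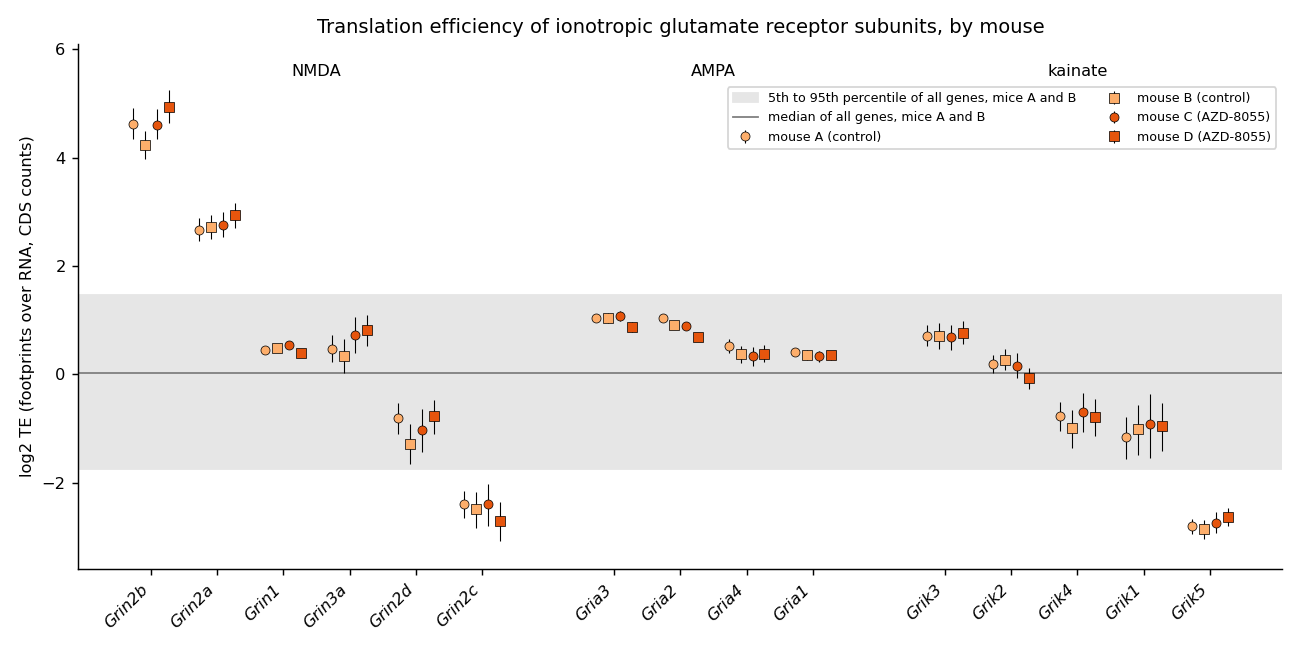
Log2 TE on CDS counts of the NMDA, AMPA and kainate receptor subunits in mice A to D, 1 point per mouse with its 95% exact counting interval, ordered within each family by the mean of mice A and B. The grey band runs from the 5th to the 95th percentile of all genes in mice A and B (-1.76 to 1.46). Grin2b and Grin2a lie above the band in all 4 mice. Grin2c and the kainate subunit Grik5 lie below it in all 4, and the 4 AMPA subunits lie within it.

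Other ionotropic glutamate receptor subunits had a narrower range. AMPA receptors carry most fast excitatory transmission, and the log2 TE of their 4 subunits in mice A and B ran from 0.39 for Gria1 to 1.04 for Gria3. The 5 kainate receptor subunits ran from -2.83 for Grik5, a high-affinity subunit, to 0.71 for Grik3. None of these 9 subunits reached the TE of Grin2a. Of the genes whose products bind, modify or supply ligand to NMDA receptors, 36 had a TE. They ran from -2.24 for Dlg4, encoding the scaffold PSD-95, to 1.84 for Lin7a, a small PDZ scaffold, with a median of 0.011. Within the treated mice, edgeR called 17 of the 36 partners higher and 12 lower in footprints, beside 34.6% and 36% of all genes. The largest log2 differences upward on CDS counts were Lin7a at 1.8, Lin7c at 1.74 and Nos1, the neuronal nitric oxide synthase, at 1.64, and downward Dlg4 at -2.22, the kinase Dapk1 at -1.17 and the tyrosine kinase Fyn at -1.17. With RNA-Seq counted on exons, the added setting, Lin7a turned to -0.80 and Lin7c to -0.33, both called lower by edgeR, while Nos1 was at 2.43, Dlg4 at -1.80, Dapk1 at -0.77 and Fyn at -0.83.

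The TE differences changed the makeup of the GluN2 family between RNA and footprints. Of the summed CDS reads on Grin2a to Grin2d, Grin2c made up 58.4% and 58.5% in the RNA-Seq of mice A and B and 56.7% and 58.2% in that of mice C and D. In footprints its share was 3.85%, 4.45%, 3.73% and 3.11%. Grin2b held 5.6% to 7.24% of these reads in RNA-Seq and 58.1% to 60.7% in footprints. Grin2a held 12.0% to 14.7% in RNA-Seq and 31.7% to 33.6% in footprints. These shares are of reads, not of molecules, since longer coding sequences draw more reads, and only their differences between libraries are read here. For Grin2b in mice A and B, these differences follow from its choice. Those of Grin2a, Grin2c and Grin2d in mice A and B follow from it in part, since Grin2b reads are in every total.

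Between the subunits of the forebrain synapse, Grin2b accounted for 32.1% (95% exact interval 27.2% to 37.4%) of Grin2a and Grin2b reads in the RNA-Seq of mouse A and 37.7% (32.7% to 43.0%) in that of mouse B. In footprints it accounted for 64.7% (63.1% to 66.2%) and 63.4% (61.1% to 65.6%). Treated mice gave 34.8% and 31.8% in RNA-Seq and 65.7% and 65.1% in footprints. The share was 39.1% and 30.9% in the inputs of mice E and F and 64.6% and 65.3% in their IPs. On CDS counts, the footprint and IP libraries thus lay between 63.4% and 65.7%, and the RNA-Seq and input libraries between 30.9% and 39.1%. In mice A and B the higher share in footprints follows from the choice of Grin2b. From input to IP the fitted log2 change was -1.87 for Grin2a and -0.08 for Grin2b, so there the share rose through lower Grin2a. On exon counts, the share was higher throughout, at 42.0% to 53.6% in RNA-Seq and input and 79.1% and 84.5% in IP.

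**Figure D3:**
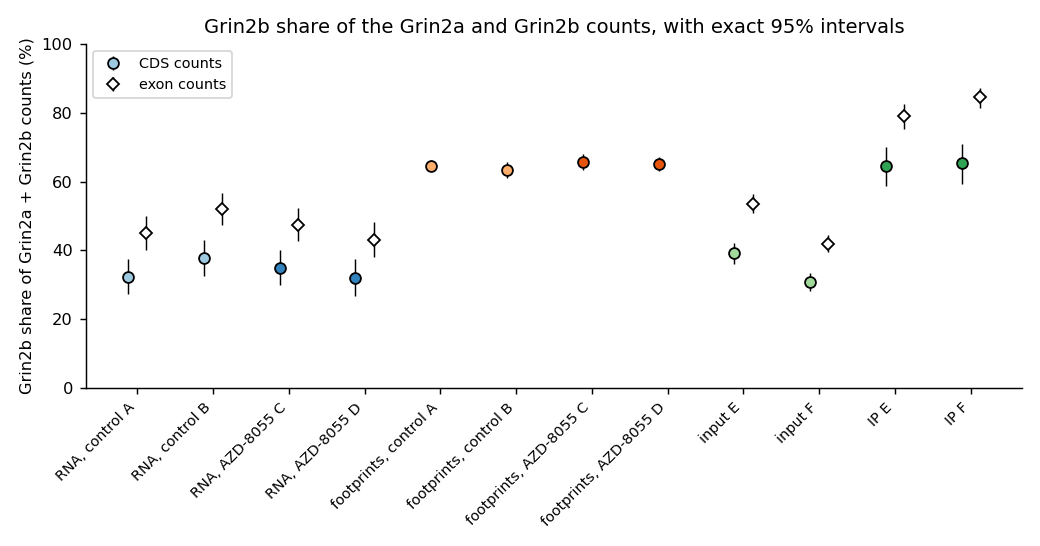
Share of Grin2b in the reads of Grin2a and Grin2b together, in percent, in each of the 12 libraries on CDS counts (circles) and in the 8 RNA-Seq libraries on exon counts (diamonds), with 95% exact binomial intervals that cover counting error only. Footprint and IP libraries lie at 63.4% to 65.7% on CDS counts and RNA-Seq and input libraries at 30.9% to 39.1%.

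IP against input asks which RNAs are held by the tagged ribosomes of Camk2a-expressing neurons. As a check of the pulldown, the summed level of 5 excitatory neuron markers was 2635 to 2744 CPM in input and 5885 to 6012 CPM in IP. The 6 inhibitory neuron markers fell from between 974 and 997 CPM to between 147 and 214 CPM, the 5 astrocyte markers from between 776 and 879 to between 70.6 and 79.9 CPM, and the 5 oligodendrocyte markers from between 1349 and 1498 to between 153 and 156 CPM. No marker of these 4 lists was at 0 in any library, and the part of these shifts in the values of the subunits was not tested. IP and input of a letter come from the same lysate, so these shifts are not differences in cell number between samples. CPM depends on every other gene in a library, so the changes that follow are on the TMM scale of edgeR, which trims the most different genes, where the median gene had a log2 IP over input of -0.067.

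Grin2b was close to that median. Its log2 IP over input was -0.14 in mouse E, from 186 IP and 373 input counts, and -0.01 in mouse F, from 179 and 382. The fitted change was -0.08 ± 0.17 (SE), with an adjusted p of 0.70 by edgeR. On exon counts the mice lay at -0.37 and 0.33, on either side of 0. Grin1 was at -0.21 in mouse E and -0.20 in mouse F on CDS counts, with a fitted change of -0.21 ± 0.10 and an adjusted p of 0.092 by edgeR. With the mouse as a block, since IP and input of a letter come from the same animal, the same change of -0.21 was called by edgeR (adjusted p = 0.0099). On exon counts Grin1 was at 0.05 and 0.20 in mice E and F, with a fitted change of 0.12 ± 0.10 and an adjusted p of 0.33 by edgeR, so its sign turned with the counting.

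The remaining 4 subunits were called lower in IP. Grin2a was at -1.65 in mouse E and -2.09 in mouse F, with a fitted change of -1.87 ± 0.17 (adjusted p = 1.7e-05 by edgeR). Grin2c had a fitted change of -2.54 ± 0.17 (adjusted p = 3.8e-06 by edgeR), with -2.68 in mouse E and -2.38 in mouse F. Grin2d was at -0.94 in mouse E and -0.35 in mouse F, a fitted change of -0.64 ± 0.19 (adjusted p = 0.014 by edgeR). Grin3a was lowest, at -3.24 and -3.15, a fitted change of -3.18 ± 0.26 (adjusted p = 1.0e-05 by edgeR). Of all 12211 genes tested on CDS counts, 39% were called lower and 36.5% higher, so 4 of 6 lower and 0 of 6 higher is read against a wide background of calls.

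Exon counts kept these 4 calls but not their sizes. Grin2a was at -2.33 ± 0.17, Grin2c at -2.88 ± 0.16, Grin2d at -1.19 ± 0.18 and Grin3a at -0.81 ± 0.20, with adjusted p-values of 1e-04, 7e-05, 0.0014 and 0.012 by edgeR, where 35.7% of 13254 genes were called lower and 33.7% higher. Grin3a thus moved from -3.18 to -0.81. Its exon counts in IP were 370 and 599 where its CDS counts were 19 and 29, ratios of 19.5 and 20.7. In the 2 inputs these ratios were 2.76 and 2.85, and in the RNA-Seq of mice A to D they were 3.39 to 3.91. Over all genes with enough counts, the median ratio was 1.79 and 1.90 in IP and 1.47 and 1.5 in input, and Grin3a lay at the 98.8th and 98.2th percentiles in IP. The source of these additional exon reads was not tested.

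Exon and CDS counts of the other subunits differed less. Grin2b had exon to CDS ratios of 1.63 to 1.83 in the 6 RNA-Seq and input libraries, near the median of all genes, and 2.08 and 2.89 in IP. Grin2a had ratios of 1.00 to 1.02 in all 8 libraries, so that almost no reads were counted outside its CDS. Grin1 had fewer exon than CDS counts in the 6 RNA-Seq and input libraries, with ratios of 0.888 to 0.974 that lay at or below the 1.64th percentile of all genes, and 1.48 and 1.64 in IP. Since coding sequence is part of the exons, exon counts below CDS counts mean that the tables did not treat the same reads alike. How they differed for Grin1 was not tested.

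**Figure D4:**
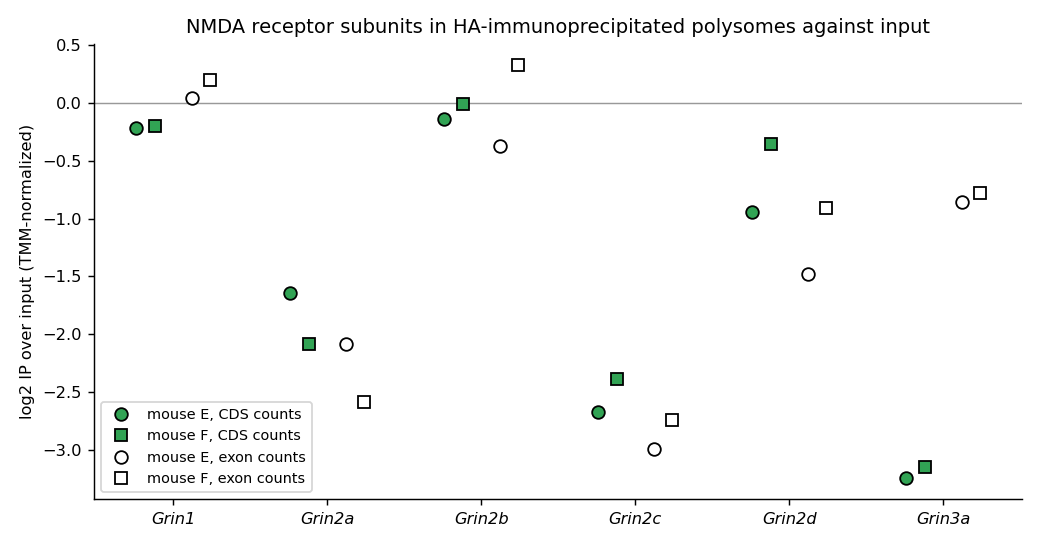
Log2 ratio of IP over input for the 6 subunits in mouse E (circles) and mouse F (squares), on CDS counts (filled) and exon counts (open), scaled by TMM. Grin2b lies around 0, Grin2a, Grin2c and Grin2d lie below 0 on both counts, and Grin3a lies near -3.2 on CDS and near -0.8 on exon counts.

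Beside the NMDA receptor subunits, edgeR called all 4 AMPA subunits lower in IP on CDS counts, from -1.63 for Gria2 to -0.56 for Gria4, and 2 of 4 on exon counts, beside 39% and 35.7% of all genes. Of the 5 kainate subunits, 3 were lower, namely Grik3 at -2.09, Grik2 at -1.22 and Grik1 at -1.03, and 1 was higher, Grik4 at 0.76. On exon counts Grik3 was no longer called, at -0.30 (adjusted p = 0.052 by edgeR). Of 36 partners, 16 were lower and 9 higher on CDS counts, where 39% and 36.5% of all genes were. On exon counts the balance turned, with 9 lower and 11 higher, beside 35.7% and 33.7% of all genes. The lowest were Phgdh, of serine synthesis, at -2.92, Nos1 at -2.88 and Slc7a10, a transporter of D-serine and other small amino acids, at -2.48. The highest were Lin7b at 2.17, Cdk5, a neuronal kinase, at 1.46 and Ppp3ca, a catalytic subunit of calcineurin, at 1.01. The median of the 36 partners was -0.13 on CDS and 0.077 on exon counts, and that of the 6 subunits -1.25 and -1.0.

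The inputs of mice E and F and the RNA-Seq of mice A and B are both poly(A) libraries of untreated or vehicle-treated brain, yet Grin2a and Grin2b were each 2.15-fold higher in CPM in the inputs. This difference lay at the 99.6th percentile of 12480 genes for both, where the median gene differed by 0.016 log2 units. Grin1 differed 1.13-fold and Grin3a 1.24-fold in the same direction, and Grin2c and Grin2d were at 0.968-fold and 0.823-fold. The 2 sets of mice differ in their preparation as well, so animal, tissue piece and library preparation cannot be told apart, and no test was made. Mean Grin2b was 12.6 CPM in the RNA-Seq of mice A and B, 10.7 in that of C and D and 27.1 in the inputs. Mean Grin2a was 23.4, 21.2 and 50.6 CPM in the same order. The RNA-Seq of mice A to D is the denominator of their TE. How far its lower level bears on the TE of Grin2a and Grin2b was not tested.

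After AZD-8055 no subunit was called changed in RNA, footprints or TE. In RNA-Seq, edgeR's fitted log2 changes ran from -0.24 ± 0.18 for Grin2b to 0.12 ± 0.06 (SE) for Grin1, with a lowest adjusted p of 0.65. At an unadjusted p under 0.05, edgeR gave 0 of 6, and DESeq2 called 0 of the 3 for which it gave an adjusted p. Among all 12182 genes tested, edgeR called 0.148%. In footprints the changes ran from -0.18 ± 0.18 for Grin2c to 0.27 ± 0.17 for Grin2d, with 1 subunit, Grin1, at an unadjusted p under 0.05 (change 0.15 ± 0.06, adjusted p = 0.36 by edgeR), as had 1369 of all 10695 genes. DESeq2 called none of the 5 for which it gave an adjusted p, and edgeR called 1.03% of all genes.

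The change in TE of Grin2b is a description, since its values in mice A and B were used to choose it. In log2 units it was 0.34 ± 0.17 (SE), from 4.62 and 4.23 in mice A and B to 4.61 and 4.93 in mice C and D, and the groups overlapped. Grin3a changed by 0.36 ± 0.17, from 0.47 and 0.34 to 0.73 and 0.81, without overlap and with an adjusted p of 0.74 by edgeR. Grin2a gave 0.15 ± 0.13, Grin2d 0.18 ± 0.22, Grin1 0.01 ± 0.09 and Grin2c -0.10 ± 0.18. None of these passed an unadjusted p under 0.05 in edgeR, as 796 of all genes did, and none was called by DESeq2 or with the mouse as a block. Across the 11797 genes tested, edgeR called 0.305% at an adjusted p under 0.05 and a fold change over 2, and 0.865% without the limit on the fold change. None of the 4 AMPA subunits, 5 kainate subunits or 36 partners was called in RNA, footprints or TE. Marker levels also moved between these groups, and their part in the values was not tested. In these bulk samples, fewer cells of a type and less RNA per cell cannot be told apart. The 5 striatal neuron markers summed to 526 to 547 CPM in the RNA-Seq of mice A and B and to 642 to 686 CPM in that of mice C and D, with 1 of the 5 called by edgeR, and the 5 excitatory neuron markers summed to 2357 to 2511 and 2590 to 2773 CPM. In footprints, the striatal markers summed to 344 to 365 CPM in mice A and B and 374 to 501 CPM in mice C and D. Mouse C stood apart in the 3 olfactory bulb markers, which summed in RNA-Seq to 24.4 CPM in mouse A, 22.2 in B, 53.1 in C and 25.4 in D. In footprints these markers summed to 19.3, 22.0, 48.5 and 28.2 CPM.

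**Figure D5:**
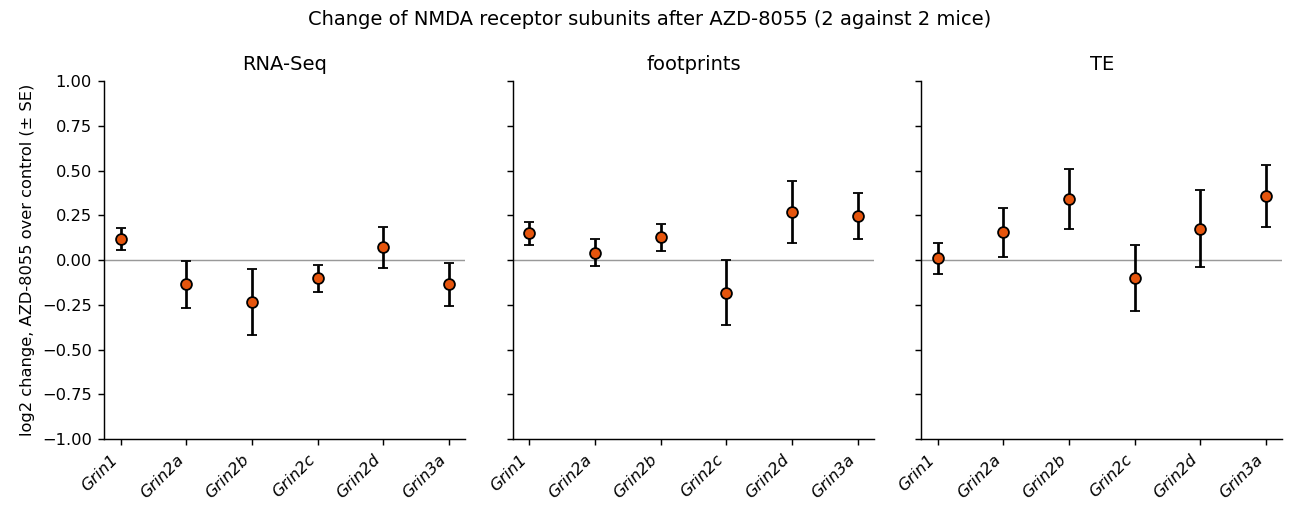
Log2 change after AZD-8055 (mice C and D against A and B) of each subunit in RNA-Seq, footprints and TE, with points for edgeR's fitted value and bars for its standard error. All 18 values lie between -0.24 and 0.36 and none was called.

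The pattern of each subunit over all 12 libraries was compared with that of 11993 genes by the root mean square difference of log2 normalized CDS counts, each centred on its own mean. The libraries include those of mice A and B, in which Grin2b was chosen for its extreme ratio of footprints to RNA, so its distance from other genes follows in part from that choice. The genes nearest to Grin2b were Dpysl2 at 0.56, Ccdc110 at 0.62, Slc8a1 at 0.63, Rorb at 0.63 and Rab3c at 0.67 log2 units. For the other subunits the nearest genes were Scamp5 at 0.063 for Grin1, Rnpc3 at 0.099 for Grin2c, Mef2c at 0.13 for Grin2a, Tsc22d4 at 0.15 for Grin2d and Elf1 at 0.18 for Grin3a. The next in order were Atp6v0a1 and Stau1 for Grin1, Trip6 for Grin2c, Kcnh7 and Ncam2 for Grin2a, Ltbp3 and Oplah for Grin2d, and Sash1 and Itpr2 for Grin3a. No subunit had another subunit among these matches. The nearest pair within the family was Grin1 and Grin2d, at 0.62, and Grin2a was nearest to Grin2b, at 0.91.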

How the data were processed

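Ribosome footprints and poly(A) RNA were measured in 12 libraries of 6 mice. Per the study's methods, the authors trimmed footprint reads, clipped poly(A), removed rRNA reads with Bowtie2, aligned with TopHat2 (mm10 per the labels) and counted with HTSeq in strict intersection mode. The deposited values are raw read counts per gene on CDS (12 libraries) and on exons (8 RNA-Seq libraries). Strandedness of the counting was not given in the sources used here. No molecular identifiers are described, so intervals cover counting error only. All columns were matched to a sample by their sample number.

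TE used DESeq2 1.42.0 size factors over mice A to D. Tests used edgeR 4.0.16 (R 4.3.3; TMM, quasi-likelihood F-test, Benjamini-Hochberg adjustment) on genes averaging 37 or more counts per library, called at an adjusted p under 0.05, and for the TE change also a fold over 2. RiboDiff, which the study used, was replaced by edgeR's interaction of library kind and treatment. Tests were tried on simulated counts first. Other steps ran in Python 3.11.15 with scipy 1.17.1 and matplotlib 3.10.9. The members and gene lists were chosen with earlier results of these data known. Genes named outside the family were the 3 largest called changes each way per list, the 5 genes below Grin2b in TE and the nearest patterns, of which some items are not reported here.

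Libraries of 1 letter come from 1 mouse. Across 11993 genes, differences between mice A and B correlated between RNA-Seq and footprints at 0.22, those between C and D at 0.23 and those between E and F, input with IP, at 0.47.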

Additional observations from a re-analysis of the deposited data

How the results depend on the processing

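The difference of Grin2b from the median of the other subunits in mice A and B was 4.78 log2 units with RNA exon counts in place of 4.03, and ran from 3.89 to 4.17 with 1 mouse left out. Among subunit values called without the mouse as a block, only that of Grin3a in treated mice changed sign, at -0.25 on RNA exon counts. That setting was chosen after seeing the data. Grin1 in IP, called lower only with the block, at -0.21, was at 0.12 on exon counts with or without it. Without a filter on low counts edgeR called 57 genes in TE in place of 36, 78 in RNA in place of 18 and 264 in footprints in place of 110, and without the limit on fold change 102 in TE. A fold limit of 2 left 3453 of 8325 genes for TE in treated mice and 5680 of 9221 for IP, and the subunits then lost were Grin1, Grin2d and Grin3a for TE and Grin2d for IP. Leaving out 1 mouse gave 13 to 36 RNA calls (33 without mouse A and 36 without mouse D) and 64 to 837 footprint calls (64 without mouse B, 837 without mouse C and 265 without mouse D). None of these settings called a subunit in RNA, footprints or TE change. The mouse as a replicate block gave 43 TE calls, 8582 calls of TE in treated mice and 10006 IP calls, and among the subunits it changed the call of Grin1 in IP alone. Size factors computed for each kind of library on its own lowered the log2 TE of all subunits by the same amount, as for Grin2b from 4.42 to 3.38, and left their differences as they were. IP was not tested without mouse E or F, as no spread between mice would remain. Depth limited the TE of Grin2c and Grin2d, through their 60 to 158 footprints, that of Grin2b, through its 98 to 135 RNA-Seq reads, and the IP of Grin3a, through its 19 and 29 CDS counts.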
